A study of Homo sapiens with 6 samples.

Results

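The transcription factor NRF2, its inhibitor KEAP1 and 7 of its antioxidant target genes were examined in a liver cancer line with and without a short hairpin RNA (shRNA) against HYOU1. The members were taken by gene name (NFE2L2, KEAP1, NQO1, HMOX1, TXNRD1, SRXN1, PGD, ME1 and OSGIN1), and all 9 were found among the 58735 genes of the deposited table. The 6 libraries were RNA from Hep3B, an established line from a human hepatocellular carcinoma. Control shRNA and HYOU1 shRNA groups held 3 libraries each. HYOU1 encodes an endoplasmic reticulum chaperone of the HSP70 family, and the comparison asks which transcripts differ when it is depleted. The hairpin sequences, the vector, the time after delivery and whether replicates were separate cultures are not stated in the labels, so a p-value here reflects library-to-library spread that may be only technical.

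NRF2, encoded by NFE2L2, is a basic leucine zipper factor that pairs with small MAF proteins and binds antioxidant response elements in its target genes. In unstressed cells KEAP1 holds NRF2 and presents it to a CUL3 ubiquitin ligase, so that NRF2 is short-lived. Oxidants and electrophiles modify cysteines of KEAP1, and NRF2 then accumulates. This control acts mainly on the protein, so the NFE2L2 transcript is not a direct measure of NRF2 activity. Its targets supply NADPH and use it to reduce quinones, thioredoxin and oxidised peroxiredoxins, and in liver they also serve the clearance of drugs and reactive metabolites.

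The libraries held 16893091 to 18233240 fragments, as recovered from the FPKM values (fragments scaled to gene length and library depth). HYOU1 was at 37.6, 58.2 and 59.5 FPKM in controls 1 to 3, against 2.35, 2.32 and 2.37 FPKM across HYOU1 shRNA replicates 1 to 3, so every library matched its label. Of 13 hepatocyte markers, 3 (HNF4A, KRT8 and KRT18) reached a mean of 1 FPKM, and ALB, APOB, TTR and GPC3 were listed at 0 in all 6 libraries. The labelled liver cell identity was therefore not matched by these defining genes. Summed FPKM of the hepatocyte list, nearly all of it from the keratins KRT8 and KRT18, was 287 to 474 in controls and 575 to 672 with HYOU1 shRNA. The sum over 8 fibroblast and stellate markers, of which 5 reached 1 FPKM, was 91.0 to 108 and 131 to 137. Most of that sum was VIM, at 78.6 to 97.4 and 121 to 126 FPKM. COL1A1, at 2.33 to 3.27 and 5.61 to 6.83 FPKM, was also higher with HYOU1 shRNA. DCN, at 3.82 to 4.49 and 1.45 to 1.81 FPKM, and PDGFRB, at 1.37 to 1.92 and 1.01 to 1.1 FPKM, were lower. ACTA2, at 1.16 to 1.78 and 0.976 to 1.59 FPKM, overlapped between the groups. For 5 biliary and other epithelial markers, of which 4 reached 1 FPKM, the sum was 53.1 to 58.8 and 63.9 to 68.0. Most of that sum was KRT7, at 30.6 to 48.1 and 50.8 to 56.8 FPKM. EPCAM, at 1.74 to 3.16 and 3.46 to 3.97 FPKM, was also higher with HYOU1 shRNA. KRT19, at 2.39 to 11.6 and 1.13 to 3.38 FPKM, SOX9, at 6.03 to 6.60 and 5.82 to 6.43 FPKM, and CDH1 overlapped between the groups. No endothelial or immune marker of 9 reached 1 FPKM. Mitochondrial genes took 4.96% to 7.59% of control fragments and 3.39% to 3.84% of HYOU1 shRNA fragments. The part of these differences in the results below was not tested.

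One library, control replicate 1, differed from the rest in a way that touches most of the members. Across the tested genes it deviated from control replicates 2 and 3 along GC content, with a median log2 deviation that ran over 10 equal bins of GC from 0.76 in the lowest to -1.0 in the highest. KEAP1, HMOX1 and OSGIN1, whose longest transcripts hold 60.3%, 58.1% and 63.4% GC, deviated in control replicate 1 by -0.81, -0.94 and -1.46 on the log2 scale. ME1, at 39.5% GC, deviated by 0.50, and NQO1 and TXNRD1, at 46.0% and 44.8%, by 0.02 and 0.09. NFE2L2 and SRXN1 lay farther from the GC trend. NFE2L2 deviated by 0.95 where the median of its GC bin was 0.30, and SRXN1 by -1.49 where the median was -0.30. Control replicate 1 also held 7.59% mitochondrial fragments, against 5.17% and 4.96% in control replicates 2 and 3. In the same order, KRT19 was at 11.6, 2.86 and 2.39 FPKM and CDH1 at 1.25, 0.294 and 0.316 FPKM. Whether a correction for GC content removes such differences was not tested. The difference of each member is therefore given for all 6 libraries, without control replicate 1, and after a correction for GC content.

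**Figure D1:**
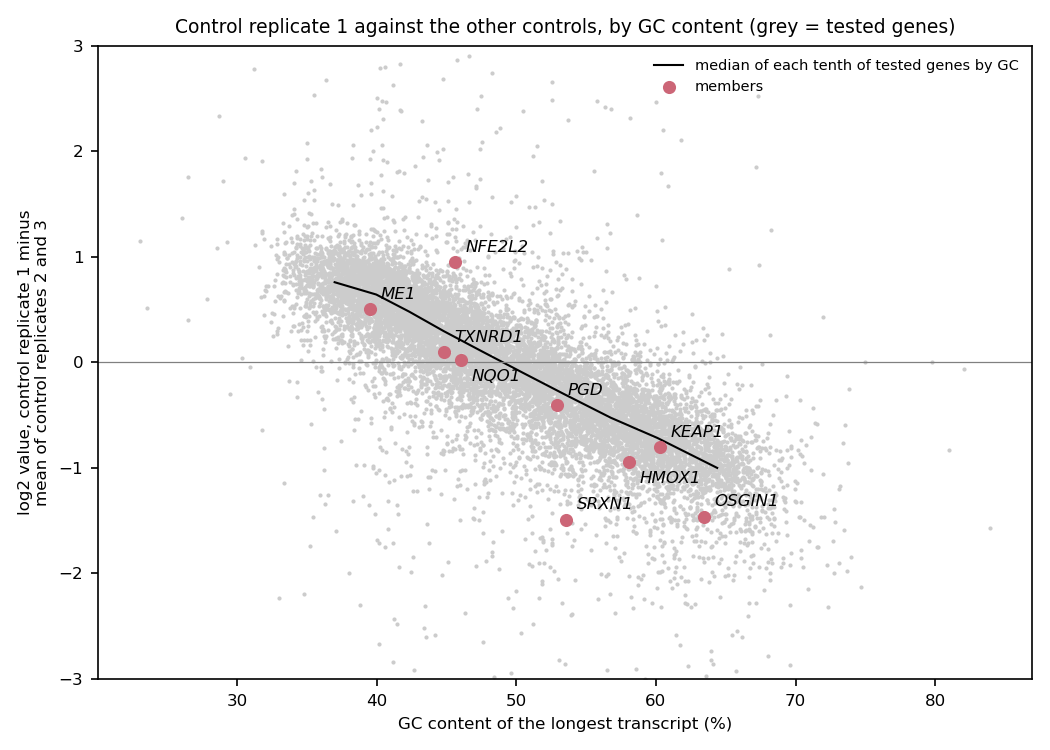
Deviation of control replicate 1 from the mean of control replicates 2 and 3 (log2 scale, vertical axis) against GC content of the longest transcript (percent, horizontal axis) for tested genes (grey), with the 9 members in red and the medians of 10 equal bins as a line; 95 of 12442 genes lie beyond 3 log2 units and are not drawn. The line falls from 0.76 to -1.0, and NFE2L2 and SRXN1 sit farthest from it among the members.

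Of the 9 members, all of which passed the filter of a mean of 1 FPKM, 1 fell with HYOU1 shRNA, 0 rose and 8 did not pass the test (limma, adjusted p under 0.05 over 12448 genes). The member that fell was ME1. Among all tested genes 12.3% were called and 5.66% were called lower, so 1 of 9 is close to the background. The median log2 difference of the members was -0.18, against 0.04 over all tested genes. In 3 members, NQO1, TXNRD1 and ME1, every HYOU1 shRNA library lay below every control, as it did in 20.6% of tested genes. Without control replicate 1, 5 members fell (KEAP1, NQO1, HMOX1, PGD and ME1) and 0 rose, where 19.7% of all tested genes fell and 24.6% rose. After the GC correction the same 5 fell and 0 rose, where 20.2% of all tested genes fell and 20.4% rose. In whole-culture RNA, fewer cells of a kind and less RNA per cell cannot be told apart.

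**Figure D2:**
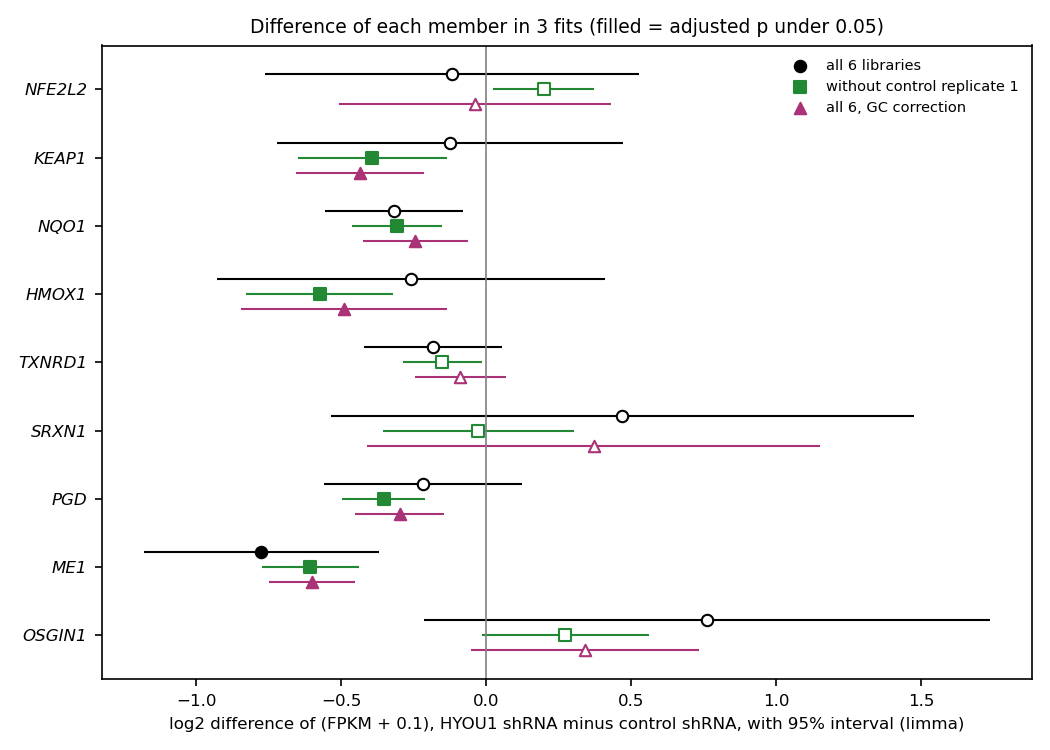
Log2 difference of (FPKM + 0.1), HYOU1 shRNA minus control shRNA (horizontal axis), with its 95% interval from limma for each member, in the fit of all 6 libraries (circles), without control replicate 1 (squares) and after the GC correction (triangles); filled symbols passed adjusted p under 0.05. ME1 is filled in all 3 fits, and KEAP1, NQO1, HMOX1 and PGD are filled in the last 2.

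The regulators come first. NFE2L2 (ENSG00000116044, chromosome 2, 177227595 to 177392697, minus strand, GRCh38) was at 25.9, 13.4 and 13.4 FPKM in controls 1 to 3, against 15.2, 16.6 and 14.6 FPKM across HYOU1 shRNA replicates 1 to 3. The HYOU1 shRNA libraries lay between the highest control and the other 2 controls, so the groups overlapped. NFE2L2 averaged 17.6 ± 7.24 FPKM in controls and 15.4 ± 1.03 FPKM with HYOU1 shRNA (SD, n = 3 each). Its log2 difference was -0.12 with a 95% interval of -0.76 to 0.53 (limma, adjusted p = 0.786). After the GC correction on all 6 libraries it was -0.04 (limma, adjusted p = 0.898). Its sign turned without control replicate 1, to 0.20 with an interval of 0.03 to 0.37 (limma, adjusted p = 0.0627). With that library left out and GC corrected in the other 5, a fit chosen after seeing the data, NFE2L2 was called, at 0.21 (limma, adjusted p = 0.0345). In that fit 6049 of the 12448 tested genes were called, 3112 of them higher. Exons of NFE2L2 share 1054 bases with AC019080.1 on the same strand, which was at 0.234 to 0.676 FPKM. On the other strand they share 54 bases with AGPS, at 11.0 to 19.9 FPKM, and 190 with AC079305.1, at 0.107 to 1.53 FPKM. The library protocol describes no step that marks strand, and such a step would not separate AC019080.1. The reads of NFE2L2 in these shared bases are therefore uncertain.

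KEAP1 (ENSG00000079999, chromosome 19, 10486120 to 10503741, minus strand) encodes the substrate adaptor that targets NRF2 for degradation. It was at 5.0, 8.88 and 8.76 FPKM in controls 1 to 3, against 5.76, 7.25 and 7.17 FPKM across HYOU1 shRNA replicates 1 to 3. Control replicate 1 was the lowest of the 6 libraries and control replicates 2 and 3 were the 2 highest. Means were 7.55 ± 2.21 and 6.73 ± 0.838 FPKM (SD, n = 3 each), a log2 difference of -0.12 with an interval of -0.72 to 0.47 (limma, adjusted p = 0.756). KEAP1 fell by 0.39 without control replicate 1 (limma, adjusted p = 0.0212) and by 0.44 after the GC correction (limma, adjusted p = 0.0103). It was at 0.02 and 0.01 without control replicate 2 or 3.

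Among tested protein-coding genes, the 3 whose log2 values over the 6 libraries, centred on their own mean, came nearest to those of NFE2L2 were DYNLT3, SMIM26 and PSMC6. Their root mean square differences from it were 0.043, 0.045 and 0.048. For KEAP1 they were GAA, WDR24 and CYB561D2, at 0.030, 0.031 and 0.046. For NQO1 they were SEL1L3, RBM8A and SLC25A3, at 0.032, 0.032 and 0.041. This likeness was taken over 6 libraries and 10644 genes and describes level patterns only, in which control replicate 1 carries much of the spread for NFE2L2 and KEAP1.

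ME1 (ENSG00000065833, chromosome 6, 83210389 to 83431071, minus strand) encodes cytosolic malic enzyme, which makes NADPH while turning malate into pyruvate. It is the member on which the result for all 6 libraries rests, so its promoter window is shown. The window is RefSeq's on GRCh38.p14, chr6:83431002-83431301, minus strand, which starts upstream of the gene and ends just inside it. Capitals mark matches to the antioxidant response element core, searched as TGACNNNGC on both strands.

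ME1: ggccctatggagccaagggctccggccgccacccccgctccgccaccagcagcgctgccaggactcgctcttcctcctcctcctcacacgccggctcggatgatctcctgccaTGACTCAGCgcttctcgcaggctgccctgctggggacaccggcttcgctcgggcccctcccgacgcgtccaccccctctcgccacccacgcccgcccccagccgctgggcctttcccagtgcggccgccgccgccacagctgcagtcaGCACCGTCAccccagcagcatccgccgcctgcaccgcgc

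The first match in it, 137 to 129 bases upstream, reads TGACTCAGC, which also holds the AP-1 core TGACTCA. The stricter word TGACTCAGC was in 0.564% of 34943 promoter windows of all genes, and among the 8 members with a window only ME1's held it. Some members have more than 1 window. The looser TGACNNNGC was in 13.3% of all windows and in 5 of the 11 windows of the members. These belong to 4 of the 8 members (KEAP1, TXNRD1, PGD and ME1). OSGIN1 held the related word TGAGTCAGC. It was found with TGANTCAGC, a search chosen after these sequences had been seen, which matched 1.36% of all windows. The stretches around 1 match in each of these genes, with 10 bases on either side and the match in capitals, are set out for comparison with ME1. Where a gene holds more than 1, the match shown is the one nearest to its start for KEAP1 and TXNRD1, and for ME1 the one that reads TGACTCAGC.

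ME1, chr6:83431170-83431198, minus strand: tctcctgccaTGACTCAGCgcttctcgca

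OSGIN1, chr16:83953131-83953159, plus strand: acgggcccctGCTGACTCAcgcttatgaa

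KEAP1, chr19:10502784-10502812, minus strand: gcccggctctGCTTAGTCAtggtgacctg

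TXNRD1, chr12:104215761-104215789, plus strand: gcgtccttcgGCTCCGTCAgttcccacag

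PGD, chr1:10398853-10398881, plus strand: cctcgccgggGCAATGTCAtctaggtgct

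All stretches are written along the gene's own strand, so a match on the other strand, as in OSGIN1, KEAP1, TXNRD1 and PGD, appears as its reverse complement. The windows of NFE2L2, NQO1 and SRXN1 held neither word, and HMOX1 had no window in the table. A match is a description of letters in these 300 bases and not a bound site. Sequence outside the windows was not searched, so a window without a match does not mean a gene without an element.

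ME1 was at 27.1, 20.2 and 18.0 FPKM in controls 1 to 3, against 12.6, 12.5 and 12.3 FPKM across HYOU1 shRNA replicates 1 to 3. All 3 HYOU1 shRNA libraries were close to each other and below every control. The mean fell from 21.8 ± 4.74 to 12.5 ± 0.151 FPKM (SD, n = 3 each). On the log2(FPKM + 0.1) scale it fell by 0.78, with an interval of -1.18 to -0.37 (limma, adjusted p = 0.0340), which is 1.71-fold. It was -0.61 without control replicate 1 (limma, adjusted p = 0.000394) and -0.60 after the GC correction (limma, adjusted p = 0.000681). ME1 did not pass without control replicate 2 or without any single HYOU1 shRNA replicate (limma, adjusted p between 0.0866 and 0.147). Its difference in those fits lay between -0.82 and -0.77. Without control replicate 2, 357 of the 12448 tested genes passed, against 1526 with all 6 libraries. Without HYOU1 shRNA replicate 1, 2 or 3 the counts were 126, 85 and 49. ME1 also did not pass with no filter on low values (limma, adjusted p = 0.0753), and its difference was below 0 in all 17 alternatives.

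PGD (ENSG00000142657, chromosome 1, 10398592 to 10420144, plus strand) encodes 6-phosphogluconate dehydrogenase, the second NADPH-producing step of the pentose phosphate pathway. It was at 92.7, 123 and 124 FPKM in controls 1 to 3, against 91.1, 100.5 and 97.5 FPKM across HYOU1 shRNA replicates 1 to 3. Control replicate 1 lay within the range of the HYOU1 shRNA libraries and the other 2 controls lay above it. PGD differed by -0.22 on the log2 scale with an interval of -0.56 to 0.12 (limma, adjusted p = 0.336). PGD fell by 0.35 without control replicate 1 (limma, adjusted p = 0.00252) and by 0.30 after the GC correction (limma, adjusted p = 0.0111).

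NQO1 (ENSG00000181019, chromosome 16, 69706996 to 69726951, minus strand) encodes a quinone reductase and is the classical NRF2 target. It was at 116, 109.5 and 119 FPKM in controls 1 to 3, against 87.6, 96.6 and 92.5 FPKM across HYOU1 shRNA replicates 1 to 3. Here control replicate 1 lay between the other controls, and all HYOU1 shRNA libraries were below all controls. NQO1 averaged 115 ± 4.87 and 92.2 ± 4.49 FPKM (SD, n = 3 each), a level 19.7% lower. The log2 difference was -0.32 with an interval of -0.55 to -0.08, and it did not pass after adjustment over all genes (limma, adjusted p = 0.0841). NQO1 fell by 0.31 without control replicate 1 (limma, adjusted p = 0.00692), by 0.24 after the GC correction (limma, adjusted p = 0.0412) and by 0.44 with quantile normalization (limma, adjusted p = 0.040). It passed in 5 of 17 alternatives. It did not pass when any library other than control replicate 1 was left out (limma, adjusted p between 0.147 and 0.282). In those fits 49 to 1022 of the 12448 tested genes passed. NQO1 also did not pass with TPM scaling (limma, adjusted p = 0.103) or with no filter (limma, adjusted p = 0.156). Its difference hardly depended on control replicate 1, whose removal lowered its standard error from 0.10 to 0.07. The limma standard error also draws on the spread of the other tested genes. The drop is therefore not a measure of the spread of NQO1 alone.

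HMOX1 (ENSG00000100292, chromosome 22, 35380361 to 35394214, plus strand) encodes heme oxygenase 1, which opens the heme ring and releases iron and biliverdin. It was at 5.46, 11.3 and 9.92 FPKM in controls 1 to 3, against 7.36, 7.72 and 6.23 FPKM across HYOU1 shRNA replicates 1 to 3. As for KEAP1, control replicate 1 was the lowest library and the other 2 controls were the highest. HMOX1 differed by -0.26 on the log2 scale with an interval of -0.93 to 0.41 (limma, adjusted p = 0.552). HMOX1 fell by 0.57 without control replicate 1 (limma, adjusted p = 0.00369) and by 0.49 after the GC correction (limma, adjusted p = 0.0374). It was at -0.06 without control replicate 2 (limma, adjusted p = 0.907) and at -0.15 without control replicate 3 (limma, adjusted p = 0.760).

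**Figure D3:**
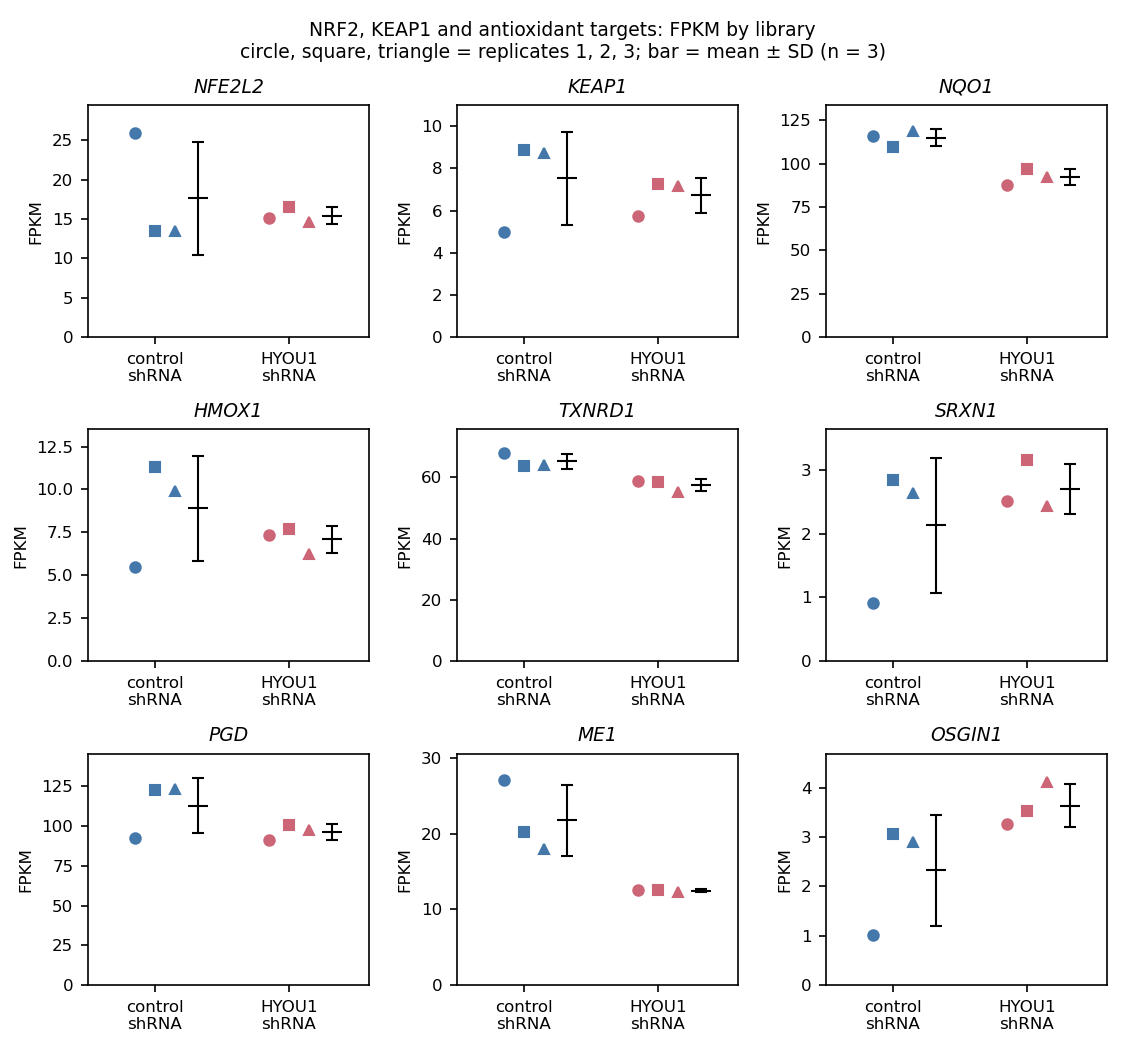
FPKM (vertical axis, from 0, a scale for each gene) of the 9 members in control shRNA libraries (blue) and HYOU1 shRNA libraries (red), with circles, squares and triangles for replicates 1, 2 and 3 and black bars for the mean and SD of 3 libraries. Control replicate 1 (blue circle) lies apart from the other controls in most panels, and in NQO1, TXNRD1 and ME1 all red points are below all blue ones.

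TXNRD1 (ENSG00000198431, chromosome 12, 104215779 to 104350305, plus strand) encodes cytosolic thioredoxin reductase, a selenoprotein that uses NADPH to reduce thioredoxin. Its values were 68.2, 63.6 and 64.1 FPKM in controls 1 to 3, against 58.8, 58.6 and 55.2 FPKM across HYOU1 shRNA replicates 1 to 3. The groups did not overlap, and the HYOU1 shRNA mean was 11.9% lower. The log2 difference was -0.18 with an interval of -0.42 to 0.06 (limma, adjusted p = 0.257). It did not pass without control replicate 1, at -0.15 (limma, adjusted p = 0.0675), or after the GC correction, at -0.09 (limma, adjusted p = 0.324). It did pass with both together, the fit chosen after seeing the data (limma, adjusted p = 0.0186). In that fit 6049 of the 12448 tested genes were called, 2937 of them lower.

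SRXN1 (ENSG00000271303, chromosome 20, 646615 to 653370, minus strand) encodes sulfiredoxin, which restores over-oxidised peroxiredoxins. It was the weakest member in controls, at 0.912, 2.85 and 2.64 FPKM in controls 1 to 3, against 2.53, 3.17 and 2.44 FPKM across HYOU1 shRNA replicates 1 to 3. Control replicate 1 alone was low, and the other 5 libraries overlapped. Behind that low value stood 42 fragments, with an exact 95% Poisson interval of 30.3 to 56.8 for counting error only, against 115 to 157 fragments in the other libraries. The log2 difference of 0.47 had an interval of -0.53 to 1.48 (limma, adjusted p = 0.476) and was -0.03, with an interval of -0.36 to 0.30, without control replicate 1 (limma, adjusted p = 0.896). The GC correction gave 0.37 (limma, adjusted p = 0.402). SRXN1 shares 2292 exon bases with AL121758.1 on the same strand, listed at 0.0201 to 0.216 FPKM, so its level is uncertain where reads were split or dropped.

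OSGIN1 (ENSG00000140961, chromosome 16, 83948282 to 83966332, plus strand), named for growth inhibition under oxidative stress, was the member with a difference above 0 in every fit. It was at 1.02, 3.05 and 2.90 FPKM in controls 1 to 3, against 3.26, 3.52 and 4.11 FPKM across HYOU1 shRNA replicates 1 to 3. All HYOU1 shRNA libraries were above all controls, as they were in 2964 of the 12448 tested genes. The log2 difference was 0.76 with an interval of -0.22 to 1.74 (limma, adjusted p = 0.250), and it was 0.27 with an interval of -0.01 to 0.56 without control replicate 1 (limma, adjusted p = 0.110). The GC correction gave 0.34 (limma, adjusted p = 0.141). Its 16 alternatives lay between 0.17 and 1.02 and none was called. Control replicate 1 held 60 fragments of OSGIN1, with an interval of 45.8 to 77.2, against 180 to 249 in the others. OSGIN1 shares 481 exon bases with AC009119.2 on the same strand, which was at 0.112 FPKM or less.

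Levels per length spanned a wide range among the members. In controls the order of mean FPKM was NQO1, PGD, TXNRD1, ME1, NFE2L2, HMOX1, KEAP1, OSGIN1 and SRXN1. The neighbours NQO1 and PGD, ME1 and NFE2L2, HMOX1 and KEAP1, and OSGIN1 and SRXN1 overlapped in their library values, and the other neighbours were apart. With HYOU1 shRNA the order was PGD, NQO1, TXNRD1, NFE2L2, ME1, HMOX1, KEAP1, OSGIN1 and SRXN1. There NFE2L2, at 15.4 ± 1.03 FPKM, stood above ME1, at 12.5 ± 0.151 FPKM (SD, n = 3 each), in every library, while PGD and NQO1, and HMOX1 and KEAP1, still overlapped. The strongest, NQO1 and PGD, exceeded 97.8% and 97.7% of tested genes in mean control FPKM, and SRXN1 exceeded 18.3%.

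The spread within a group also differed. Over the 3 HYOU1 shRNA libraries the coefficient of variation of FPKM ran from 1.21% for ME1 to 14.7% for SRXN1. Over the 3 controls it was 3.84% for TXNRD1 and 4.24% for NQO1 but 41.1% for NFE2L2, 48.8% for OSGIN1 and 49.8% for SRXN1. Control replicate 1 was the lowest control for 5 members and the highest for 3.

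The wider pathway was read from 5 lists holding 67 other genes, of which 64 were tested. In the fit of all 6 libraries 3 of these rose, 6 fell and 55 did not pass, where 6.6% of all tested genes rose and 5.66% fell. With control replicate 1 left out, 10 list genes rose and 23 fell, where 24.6% of all tested genes rose and 19.7% fell. The GC correction gave 9 and 22, against 20.4% and 20.2%. Each of the 9 genes called with all 6 libraries was called in the same direction in both of these fits. The counts of single lists below are to be read against the same shares. Calls lost with 1 library left out are to be read against the counts over all 12448 tested genes. These were 357 and 1022 without control replicate 2 or 3, and 49 to 126 without a HYOU1 shRNA replicate. With no filter on low values MAFF, NNT, TXNRD3 and PRDX4 were not called (limma, adjusted p between 0.0505 and 0.0857).

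Regulators and partners of NRF2 had 1 of 13 genes rising and 0 falling, with a median log2 difference of 0.14. The gene that rose was MAFF, a small MAF protein that pairs with NRF2 or with its competitor BACH1. Controls averaged 3.76 ± 0.928 FPKM and HYOU1 shRNA libraries 7.93 ± 0.604 FPKM (SD, n = 3 each), so MAFF rose by 1.08 on the log2 scale (limma, adjusted p = 0.0247), and it did not pass without control replicate 2 or any 1 HYOU1 shRNA replicate (limma, adjusted p between 0.0690 and 0.123). Without control replicate 1, 5 rose (NFE2L3, BACH1, MAFF, MAFG and SQSTM1) and 1 fell (MAFK). BACH1, a repressor that competes at the same elements, stood at 10.3 ± 4.12 and 15.6 ± 0.714 FPKM, with a log2 difference of 0.65 that did not pass (limma, adjusted p = 0.145) and of 0.96 without control replicate 1 (limma, adjusted p = 5.77e-05). CUL3 and RBX1, which form the ligase with KEAP1, were at -0.27 and -0.21 and did not pass. Without control replicate 1 they were at -0.04 and -0.06. BACH1, CUL3 and RBX1 are named here after their values were seen.

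Of 12 other genes of NADPH supply 1 fell and 0 rose, with a median of -0.14. That gene was NNT, the mitochondrial transhydrogenase, at 39.0 ± 6.84 and 24.9 ± 0.739 FPKM (SD, n = 3 each), a fall of 0.63 on the log2 scale (limma, adjusted p = 0.0398). The call was lost when any library other than control replicate 1 was left out (limma, adjusted p between 0.0587 and 0.168). Without control replicate 1, 5 fell, NNT among them, and 1 rose (IDH2), and the same split was found after the GC correction.

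In the thioredoxin and peroxiredoxin list 2 of 12 tested genes rose and 1 fell. TXNIP, which binds and inhibits thioredoxin and restrains glucose uptake, was at 76.7 ± 8.13 and 241 ± 3.48 FPKM (SD, n = 3 each), a log2 difference of 1.66 (limma, adjusted p = 0.00224). TXNRD3, a relative of TXNRD1, rose by 0.71 and PRDX4, the peroxiredoxin of the endoplasmic reticulum, fell by 0.56 (limma, adjusted p = 0.0379 and 0.0236). Both calls were lost when any library other than control replicate 1 was left out (limma, adjusted p between 0.0584 and 0.163). The median of the list was -0.08. Without control replicate 1, and likewise after the GC correction, 3 rose and 4 fell.

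Of 7 tested glutathione genes 1 fell and 0 rose, with a median of -0.41. SLC7A11, the cystine transporter, was at 7.12 ± 2.41 and 1.77 ± 0.127 FPKM (SD, n = 3 each) and fell by 1.90 (limma, adjusted p = 0.00931). In this list the GC correction gave 4 that fell, leaving out control replicate 1 gave 3, and 0 rose in either fit. Of 20 tested other targets 3 fell and 0 rose, with a median of -0.07, while the GC correction gave 8 that fell and 1 that rose, and leaving out control replicate 1 gave 10 and 1. The 3 called with all 6 libraries were AKR1C1, AKR1C2 and AKR1C3, aldo-keto reductases whose near-identical sequences leave the split of their reads uncertain, at -1.93, -1.80 and -0.90 (limma, adjusted p = 0.00228, 0.00274 and 0.00808). SLC7A11 and AKR1C3 did not pass when any 1 HYOU1 shRNA replicate was left out (limma, adjusted p between 0.0615 and 0.0704). All 4 of these differences were larger in size than that of any of the 9 members.

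**Figure D4:**
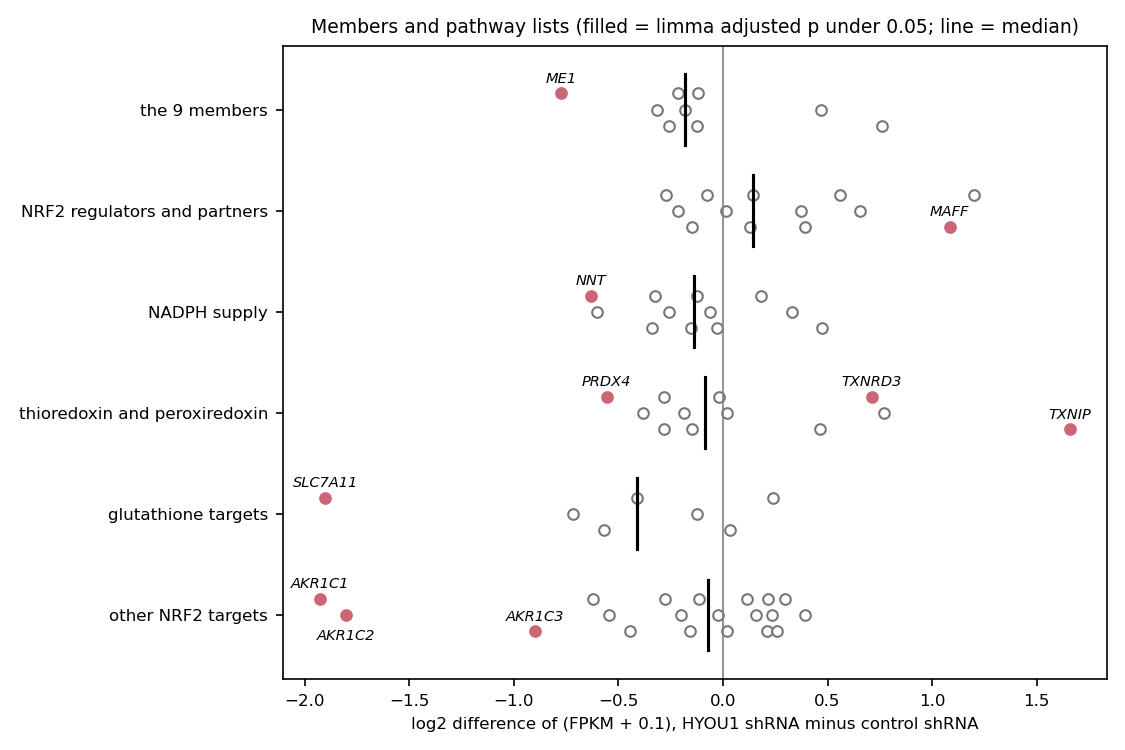
Log2 difference of (FPKM + 0.1), HYOU1 shRNA minus control shRNA (horizontal axis), for the 9 members and the tested genes of 5 pathway lists (rows), fitted on all 6 libraries; filled points passed adjusted p under 0.05 in limma, and the black line is the median of a row. ME1 is the filled point among the members, and TXNIP and AKR1C1 are the extremes at 1.66 and -1.93.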

How the data were processed

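Polyadenylated RNA of 6 libraries was sequenced, per the labels' protocols. The authors deposited FPKM values with gene lengths; the aligner, the counter and the handling of strand are not stated there. Each of the 58735 identifiers and positions matched GENCODE release 29 (GRCh38). FPKM times gene length came in whole multiples of 1 step in each library (tolerance 0.01 fragments), which gave fragment totals; 3 fragments were worth 0.160 to 0.176 FPKM for a gene of 1 kb, for counting error only.

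The test took the 12448 genes whose mean reached 1 FPKM, fitted as log2(FPKM + 0.1) with limma 3.58.1 in R 4.3.3 (variance trend, robust priors, two-sided), with Benjamini-Hochberg adjustment over all of them and a threshold of 0.05. The fit was tested on simulated data whose spread was estimated with control replicate 1 left out. The deviation of that library was not simulated, so the test does not cover it. The GC correction removed, per library, a lowess trend (span 0.3) on GC content of the longest transcript, which also removes any real difference that follows GC; 6 tested genes had no GC value. Alternatives were other pseudocounts, filters and scalings, a replicate block, voom on the recovered fragments, and leaving out each library. Promoter windows came from RefSeq.

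The members and lists were chosen with earlier results of these data known. Named genes are the members, HYOU1, up to 4 called genes with the largest change in each list, and the 3 genes most like NFE2L2, KEAP1 and NQO1; BACH1, CUL3 and RBX1, as well as genes listed only by name, fall outside this rule. Replicates of a group differed by more than sampling noise.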

Additional observations from a re-analysis of the deposited data

How the results depend on the processing

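Of 151 member values under alternatives, 121 kept their sign and their side of the threshold, 18 came past it, 6 fell short of it and 6 turned sign. Signs turned for NFE2L2 without control replicate 1 (0.20, and 0.21 with the GC correction added, a fit chosen after seeing the data), for SRXN1 in the same 2 fits (-0.027 and -0.017), and for KEAP1 without control replicate 2 or 3 (0.015 and 0.0051). With each library left out in turn, NFE2L2 ranged from -0.28 to 0.20, KEAP1 from -0.39 to 0.015 and SRXN1 from -0.027 to 0.74. The cause was not tested. Over 9 members, 1 was called in the fit of all 6 libraries. The count was 0 with no filter and with the replicate block, where 770 of 30059 and 940 of 12448 tested genes were called. It was 2 with quantile normalization, where 1513 of 12448 were called. With the GC correction it was 5, without or with the block, where 5048 and 4504 of 12448 were called. It was 7 with the GC correction and control replicate 1 left out, where 6049 of 12448 were called. It ranged from 0 to 5 when each library was left out in turn, where 49 to 5518 of 12448 were called.

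Over all tested genes, 1526 were called. The count was 770 with no filter, 938 with a filter of 5 FPKM, 940 with the replicate block, 5048 with the GC correction, 4504 with that correction and the block, and 6049 with it and control replicate 1 left out. It ranged from 49 to 5518 when each library was left out in turn. With the block, ME1, NNT, PRDX4 and TXNRD3 were at adjusted p = 0.0518, 0.0587, 0.0583 and 0.0744 (limma). Whether same-numbered replicates belong together is not stated in the labels. Deviations from the group means correlated across genes at 0.12, -0.09 and 0.17 for the 3 same-numbered pairs, against -0.21 to 0.16 for the other pairs. Control replicate 1 carries much of the control spread, so these values do not decide whether replicates were paired. Pseudocounts of 1 and 0.01, TPM scaling and voom left 1 member called, ME1. The filter of 5 FPKM removed SRXN1 and OSGIN1, whose fragments are few.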

Other observations

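RPL18AP3, a processed pseudogene in an intron of TXNRD1 on the same strand, was listed at 142, 275 and 279 FPKM in controls 1 to 3, against 316, 358 and 373 FPKM across HYOU1 shRNA replicates 1 to 3, above TXNRD1 itself in every library. It shares no exon base with TXNRD1, and its values are uncertain because near-identical ribosomal protein copies can share reads. Among genes beside the members, AC079305.1, which lies opposite NFE2L2 and shares 190 exon bases with it, was at 0.470, 0.107 and 0.335 FPKM in controls 1 to 3, against 0.895, 1.53 and 1.26 FPKM across HYOU1 shRNA replicates 1 to 3, with no overlap between the groups. Among tested genes, 2964 of 12448 had every HYOU1 shRNA library above every control. AC079305.1 itself lay below the filter of a mean of 1 FPKM. Both RPL18AP3 and AC079305.1 were chosen after their values were seen, and no test is given for them.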
